A study of Mus musculus with 9 samples.

Results

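Glycolysis and the targets of the hypoxia-inducible factors were described through 35 genes in RENCA, a mouse renal carcinoma cell line in which Ndufa4l2 was knocked out and put back. The genes were taken by name from the deposited table of counts: 22 encode transporters, enzymes and regulators of glycolysis, and 13 are other genes that hypoxia-inducible factors are known to induce. They fill 36 of the table's 54532 rows, because the name Aldoa stands on a pair of rows, and 34 of them passed a filter on low counts that left 13326 rows for testing. The members that did not pass were Slc16a3, a lactate exporter, with at most 11 reads in any library, and Ldhb, the heart-type subunit of lactate dehydrogenase, with at most 2.

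The 9 mRNA libraries fall into 3 groups of 3. Rescue cells (genotype label NDUFA4L2 +/+) are knockout cells in which Ndufa4l2 was stably re-expressed from a lentivirus with a puromycin cassette and selected at 1.5 ug/mL puromycin. Knockout cells (NDUFA4L2 -/-) were edited with CRISPR-Cas9 and 1 guide and grown from single-cell colonies screened by qPCR. Empty-vector cells are labelled wild type, and whether they passed through a single-cell step is not stated in these sources. The labels give a common RPMI growth medium and state no hypoxia and no oxygen level. The design text speaks of fewer knockout replicates than the 3 that are labelled and tabulated, and no label ties a replicate to a culture of its own, so the spread that the p-values are measured against may be technical. The number of knockout colonies behind the libraries is not given either, so a property of 1 clone and the effect of losing the gene cannot be told apart in comparisons with the empty vector. Puromycin selection is labelled for the rescue cells alone. Re-expression of Ndufa4l2, the lentivirus and the selection therefore cannot be told apart in either comparison with rescue cells.

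Glycolysis converts glucose to pyruvate in the cytosol and makes ATP without oxygen, and lactate dehydrogenase then turns pyruvate into lactate, which monocarboxylate transporters carry across the plasma membrane. Hypoxia-inducible factors are transcription factors made of an alpha subunit, which is destroyed when oxygen is present, and the stable partner Arnt. They bind a short DNA word whose core is ACGTG or GCGTG and raise most glycolytic genes, together with genes for pH control, vessel growth, collagen hydroxylation and mitochondrial adjustment. In human clear cell renal carcinoma, loss of VHL, the protein that marks the alpha subunits for destruction, keeps this program on. Ndufa4l2 encodes a mitochondrial protein related to a respiratory-chain subunit and is itself known as a hypoxia-inducible factor target.

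Values are given as CPM, the reads of a gene scaled to a common library size after TMM scaling, which corrects library totals for composition, and levels of different genes are compared only as the authors' FPKM values, which also divide by gene length. That length is the deposited one of the gene, and the lengths of the mRNAs present in these cells were not measured. Tests are edgeR quasi-likelihood tests fitted to all 13326 rows, with Benjamini-Hochberg adjustment, and a gene was called changed at an adjusted p below 0.05. Library totals lay between 15164167 and 26643877 counts in rescue, 13106531 and 25305299 in knockout, and 14685134 and 24172162 in empty-vector libraries. Ndufa4l2 itself had 73, 48 and 35 reads in rescue libraries, 7, 8 and 6 in knockout libraries and 12, 6 and 16 in empty-vector libraries, which is under 1 CPM outside the rescue group. Knockout libraries (0.253 to 0.661 CPM) and empty-vector libraries (0.386 to 0.642 CPM) overlapped, so these counts do not show the loss that the knockout label states, and the group is taken from the labels. Reads from the mitochondrial genome made up 2.47% ± 0.212 of counts in rescue, 7.01% ± 1.1 in knockout and 2.79% ± 0.55 in empty-vector libraries (SD, n = 3 each). Of 6 epithelial markers, 4 reached 10 reads, with summed levels of 672 to 679 CPM in rescue, 845 to 897 CPM in knockout and 478 to 601 CPM in empty-vector libraries, while Krt19 and Epcam stayed at 1 read or fewer. The 4 renal lineage markers summed to 683 to 754 CPM in rescue, 804 to 892 CPM in knockout and 563 to 682 CPM in empty-vector libraries. Single markers differed from these sums: Cdh1 averaged 2.46 CPM in rescue, 99.6 CPM in knockout and 11.9 CPM in empty-vector libraries, and Pax8 averaged 165 CPM in rescue, 98.6 CPM in knockout and 237 CPM in empty-vector libraries. Cldn4, Pax8 and Lhx1 fell in knockout against empty-vector cells, while Cdh16 carried most of the renal sum. None of 5 leukocyte markers reached 10 reads, and fibroblast, endothelial and erythroid markers summed to at most 5.91, 0.826 and 0.577 CPM in any library. The mitochondrial share and the epithelial and renal markers differ between groups, and their part in the results was not tested beyond the values given. In bulk RNA, fewer cells of a kind and less RNA per cell cannot be told apart. Empty-vector replicate 1 stood apart for the genes described here: it had the highest value of its group in 17 of 21 tested glycolysis rows and 10 of 13 other target genes, against 40.4% of 11902 genes with at least 1 CPM in that group. Calls on members that change without it are named where the gene or the count is given.

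The rescue cells held the most glycolytic mRNA. The glycolysis members took 1.18% ± 0.0448 of all counts in rescue, 0.822% ± 0.0346 in knockout and 0.84% ± 0.0969 in empty-vector libraries (SD, n = 3 each), and no knockout or empty-vector library reached the lowest rescue library at 1.13%. The other hypoxia-inducible targets took 0.303% ± 0.00647 in rescue, 0.266% ± 0.00873 in knockout and 0.311% ± 0.0156 in empty-vector libraries. These are shares of library totals without TMM, whose factors averaged 1.05 in rescue, 0.924 in knockout and 1.03 in empty-vector libraries. A lower factor raises the scaled level. The lower knockout share of the other targets, and the order of knockout and empty vector for glycolysis, thus depend on the scaling. Among 17 rows for glycolytic enzymes, rescue had the highest group mean in 12 (70.6%), while among all tested genes this was so for 30%. For the other targets rescue was highest in 5 of 13 (38.5%).

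**Figure D1:**
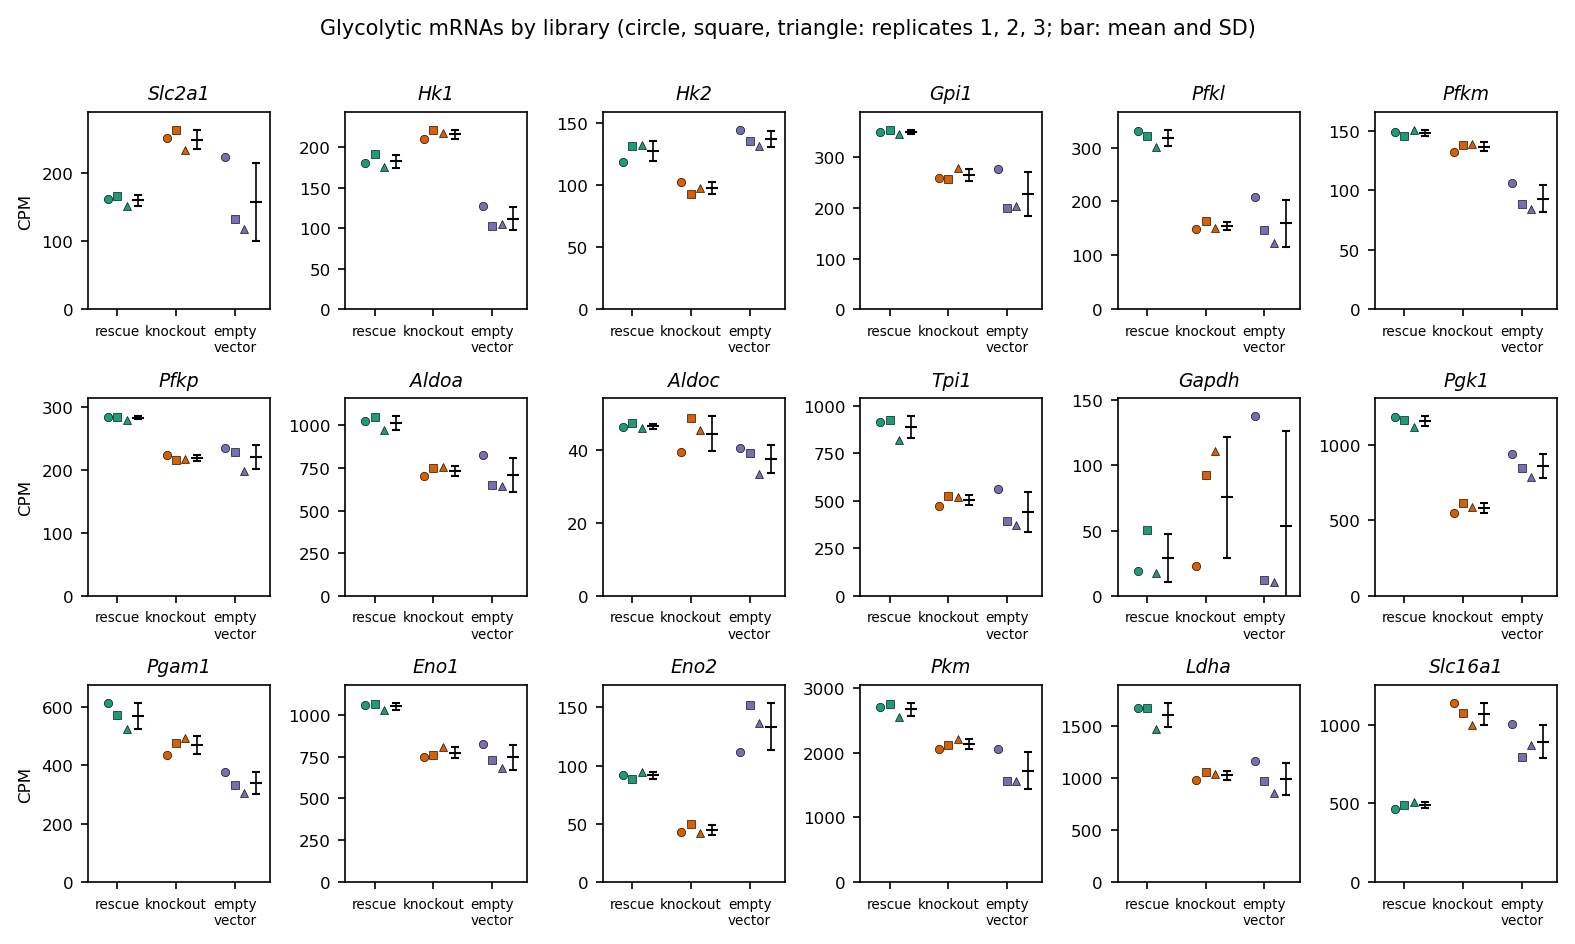
Levels of 18 glycolysis genes in CPM on linear axes that start at 0, for rescue, knockout and empty-vector libraries, with 1 point a library and a bar for the mean and SD (the lower end of the empty-vector bar for Gapdh falls below 0 and is cut off). Rescue points lie above knockout points for most enzymes, as for Pgk1 (at least 1117 CPM against at most 616 CPM), while Slc16a1, Hk1 and Slc2a1 run the other way, and the circle of empty-vector replicate 1 is often the highest of its group.

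Rescue cells held more mRNA than knockout cells for most of the enzymes of glycolysis, with a mixed picture among the other targets. Of 21 tested glycolysis rows, 12 rose and 2 fell in rescue against knockout cells, where 29.5% of all tested genes rose and 27.3% fell. All 12 that rose are enzymes, out of 17 enzyme rows, and their fold changes ran from 1.21 for Pgam1 to 2.06 for Pfkl. Of the 13 other targets, 4 rose and 3 fell, shares of 30.8% and 23.1% that are near those of all genes. The median log2 change was 0.33 over the glycolysis rows, 0.07 over the other targets and 0.03 over all tested genes. With library totals alone in place of TMM, 16 glycolysis rows rose and 1 fell, and 7 other targets rose and 2 fell. The same scaling moved the median of all genes to 0.22 and the share of calls that were rises to 69.6%, against 51.9% with TMM.

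Against empty-vector cells most enzymes stood higher in rescue cells as well. Of the 21 glycolysis rows, 14 rose and 4 fell, where 22.4% of all tested genes rose and 25.1% fell. Among the 17 enzyme rows 13 rose, Eno2 and the upstream Aldoa row fell, and Hk2 and Gapdh were not called. Of the other targets, 6 rose and 2 fell, with Ankrd37 among the rises on few reads. The median log2 change was 0.49 over the glycolysis rows, 0.21 over the other targets and -0.02 over all genes. Each pair of the 3 comparisons shares a group of libraries, so their counts are not independent of each other.

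Knockout cells differed from empty-vector cells in both directions. In knockout against empty-vector cells, 8 of the 21 glycolysis rows rose and 5 fell, where 29.5% of all tested genes rose and 31.1% fell. Of the other targets, 6 rose and 4 fell. The median log2 change was 0.19 over the glycolysis rows, -0.09 over the other targets and -0.02 over all genes. Without empty-vector replicate 1 the median was 0.31 over the glycolysis rows and -0.0083 over the other targets, and with library totals alone it was 0.04 over the glycolysis rows and -0.24 over the other targets. The number of rises depended on empty-vector replicate 1: without it 15 glycolysis rows rose and 5 fell, with Gpi1, Pfkl, Aldoa, Tpi1, Gapdh, Eno1 and Ldha added, and the sign of Pfkl turned. Without empty-vector replicate 3, 5 rose, with Slc2a1, Aldoc and Pkm lost. With library totals alone, 4 rose and 6 fell, and the share of calls that were rises among all genes was 34.4%, against 48.7% with TMM.

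**Figure D2:**
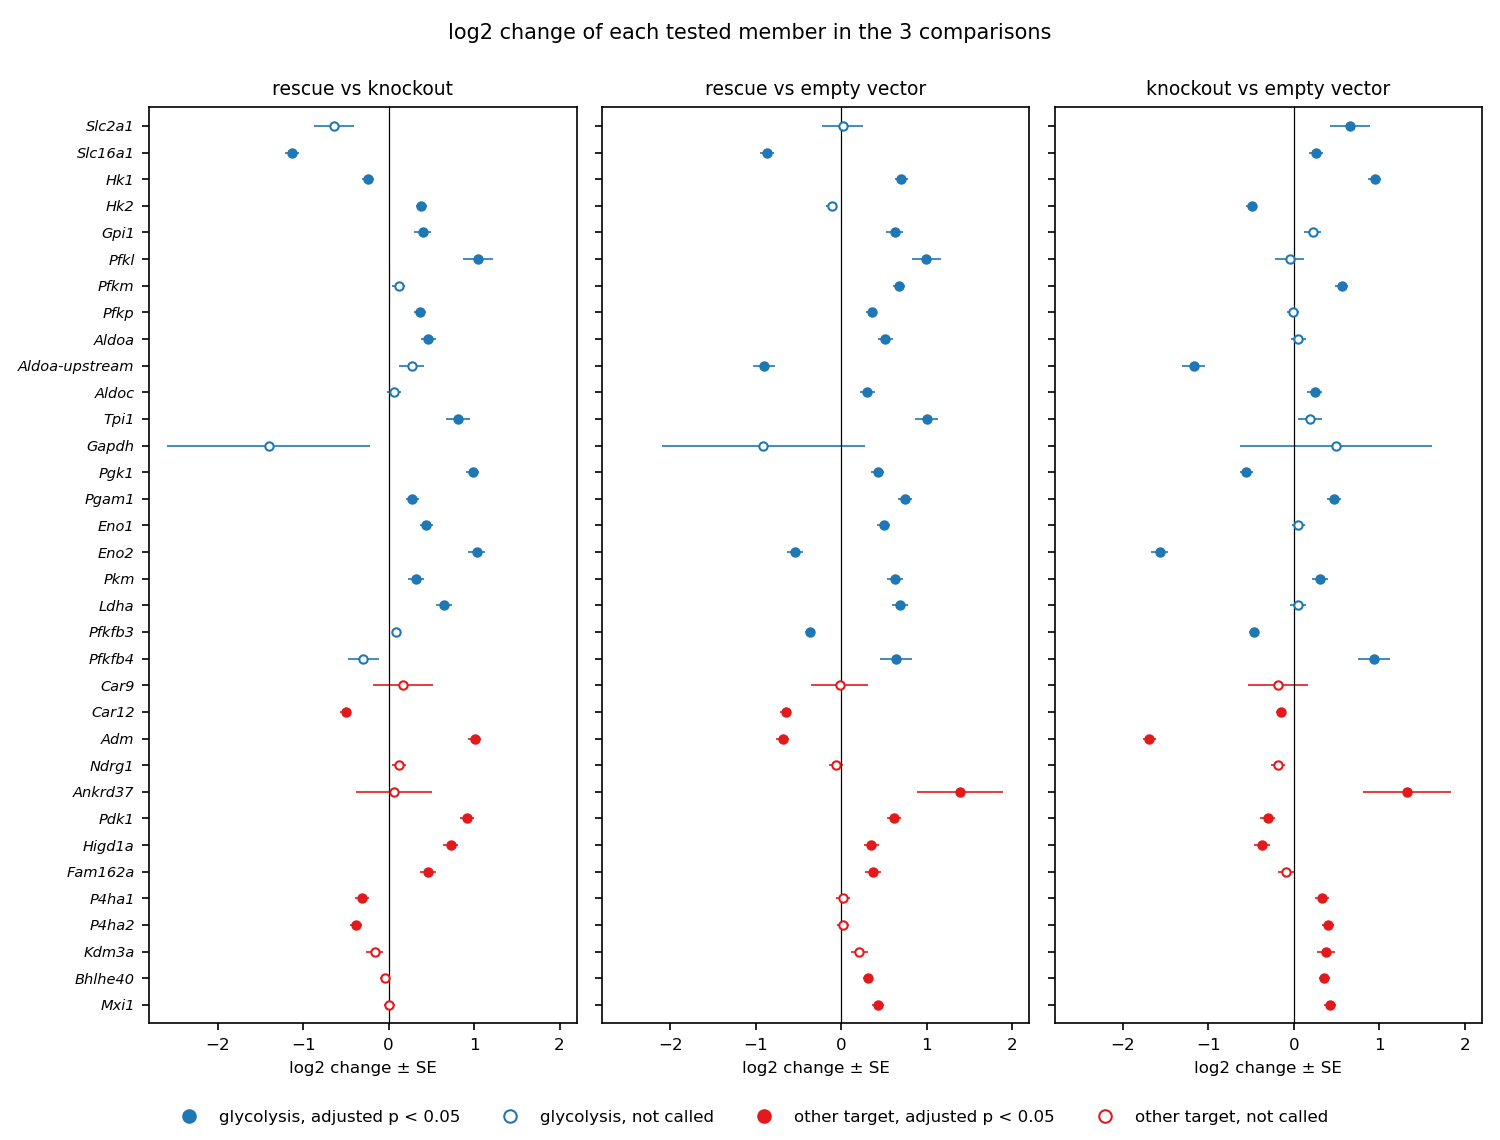
Fitted log2 change of each tested member with its standard error, in 3 panels for rescue against knockout, rescue against empty vector and knockout against empty vector. Filled points passed an adjusted p of 0.05, open points did not, glycolysis rows are blue and other targets red. Most blue points lie right of 0 in the panels with rescue cells, led by Pfkl at 1.05 against knockout, and the long bar of Gapdh shows the spread between its libraries.

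Glucose enters through Slc2a1, which encodes the facilitative transporter GLUT1, a hypoxia-inducible gene in many cell types. Its mRNA stood at 162, 166 and 150.5 CPM in rescue, 250.1, 262 and 233 CPM in knockout and 223, 132 and 117 CPM in empty-vector libraries. Every knockout library was above every rescue library, and empty-vector replicate 1 lay well above the other two of its group. The log2 change in knockout against empty vector was 0.65 ± 0.24 (SE, adjusted p = 0.0499), a call that was lost in 11 of 17 alternatives, and in the authors' deposited table the adjusted p was 0.0877. The difference of rescue from knockout did not pass the test with a log2 change of -0.64 ± 0.24 (SE, adjusted p = 0.057). It passed in 5 of 17 alternatives, among them the fit of rescue and knockout libraries alone (-0.67, adjusted p = 1.7e-10). Its adjusted p in the authors' deposited table was 3.9e-25. Without empty-vector replicate 1 the log2 change was 1.00 in knockout against empty vector (adjusted p = 4.9e-15), -0.62 in rescue against knockout (adjusted p = 2e-11) and 0.38 in rescue against empty vector (adjusted p = 1.1e-05).

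The hexokinases trap glucose in the cell as glucose 6-phosphate, and the isozyme pair moved in opposite directions. Hk1, the broadly expressed form, had 181, 191 and 176 CPM in rescue, 210.0, 221 and 217 CPM in knockout and 128, 103 and 105 CPM in empty-vector libraries. It rose in knockout against empty-vector cells with a log2 change of 0.95 ± 0.07 (SE, adjusted p = 2.1e-09) and fell in rescue against knockout cells by a small amount, with a log2 change of -0.24 ± 0.07 (SE, adjusted p = 0.008), a call lost with library totals alone. Hk2, the form usually raised by hypoxia-inducible factors and in tumours, had 119, 131 and 133 CPM in rescue, 103, 93.2 and 98 CPM in knockout and 145, 136 and 132 CPM in empty-vector libraries. It fell in knockout against empty-vector cells with a log2 change of -0.49 ± 0.06 (SE, adjusted p = 2.0e-06) and rose in rescue against knockout cells with a log2 change of 0.38 ± 0.06 (SE, adjusted p = 4.7e-05). Rescue and empty-vector cells did not differ past the threshold for Hk2, with a log2 change of -0.11 ± 0.06 (SE, adjusted p = 0.17).

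As a share of the summed FPKM of Hk1 and Hk2, Hk2 made up 48.4, 49.5 and 52% in the rescue libraries, 41.1, 37.6 and 39.2% in the knockout libraries and 61.8, 65.4 and 64.2% in the empty-vector libraries. The groups did not overlap, with means of 50.0% ± 1.81 in rescue, 39.3% ± 1.76 in knockout and 63.8% ± 1.81 in empty-vector cells (SD, n = 3 each). These shares are a description and were not tested.

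Glucose 6-phosphate is isomerised by Gpi1, which had 349, 354 and 346 CPM in rescue, 259, 257 and 278 CPM in knockout and 277, 199.9 and 204 CPM in empty-vector libraries. It rose in rescue against knockout cells with a log2 change of 0.40 ± 0.10 (SE, adjusted p = 0.003). Phosphofructokinase, the committed step of the pathway, is built from liver, muscle and platelet subunits, and of these Pfkl had the largest change in both comparisons with rescue cells. The liver form Pfkl had 331, 322 and 302 CPM in rescue, 148, 163 and 151 CPM in knockout and 208, 147 and 124 CPM in empty-vector libraries, with every rescue library above every other. It rose in rescue against knockout cells with a log2 change of 1.05 ± 0.17 (SE, adjusted p = 0.0011) and in rescue against empty-vector cells with a log2 change of 0.99 ± 0.17 (SE, adjusted p = 0.0019). In knockout against empty-vector cells the log2 change was -0.05 ± 0.17 (SE, adjusted p = 0.82), and without empty-vector replicate 1 it was 0.20 (adjusted p = 0.011).

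The muscle form Pfkm had 149, 145 and 151 CPM in rescue, 132, 138 and 139 CPM in knockout and 106, 88.8 and 84 CPM in empty-vector libraries, with the empty vector lowest. It rose in knockout against empty-vector cells with a log2 change of 0.56 ± 0.07 (SE, adjusted p = 1.8e-06), and its change in rescue against knockout cells did not pass the test with a log2 change of 0.12 ± 0.07 (SE, adjusted p = 0.17). That change was called without empty-vector replicate 1 (0.13, adjusted p = 0.034) and with library totals alone (0.30, adjusted p = 0.00049). The platelet form Pfkp had 283, 284 and 279 CPM in rescue, 223, 215 and 217 CPM in knockout and 234, 228 and 198 CPM in empty-vector libraries. Knockout and empty-vector libraries overlapped for Pfkp, and the gene rose in rescue against knockout cells with a log2 change of 0.37 ± 0.07 (SE, adjusted p = 7.9e-05). Of the summed FPKM of the 3 subunits, Pfkl took 42.1% ± 1.25 in rescue, 28.8% ± 0.955 in knockout and 34.7% ± 3.7 in empty-vector cells, and Pfkm took 39.3% ± 1.12 in rescue, 50.9% ± 0.727 in knockout and 41% ± 1.83 in empty-vector cells (SD, n = 3 each). By FPKM, Pfkm had the largest share in every knockout library and Pfkl in every rescue library, though in rescue replicate 3 by only 40.7% against 40.6%. This order depends on the gene lengths that FPKM divides by, 3340 bases for Pfkm, 6675 for Pfkl and 13401 for Pfkp. Before that division Pfkm had the fewest reads of the 3 in each knockout library.

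**Figure D3:**
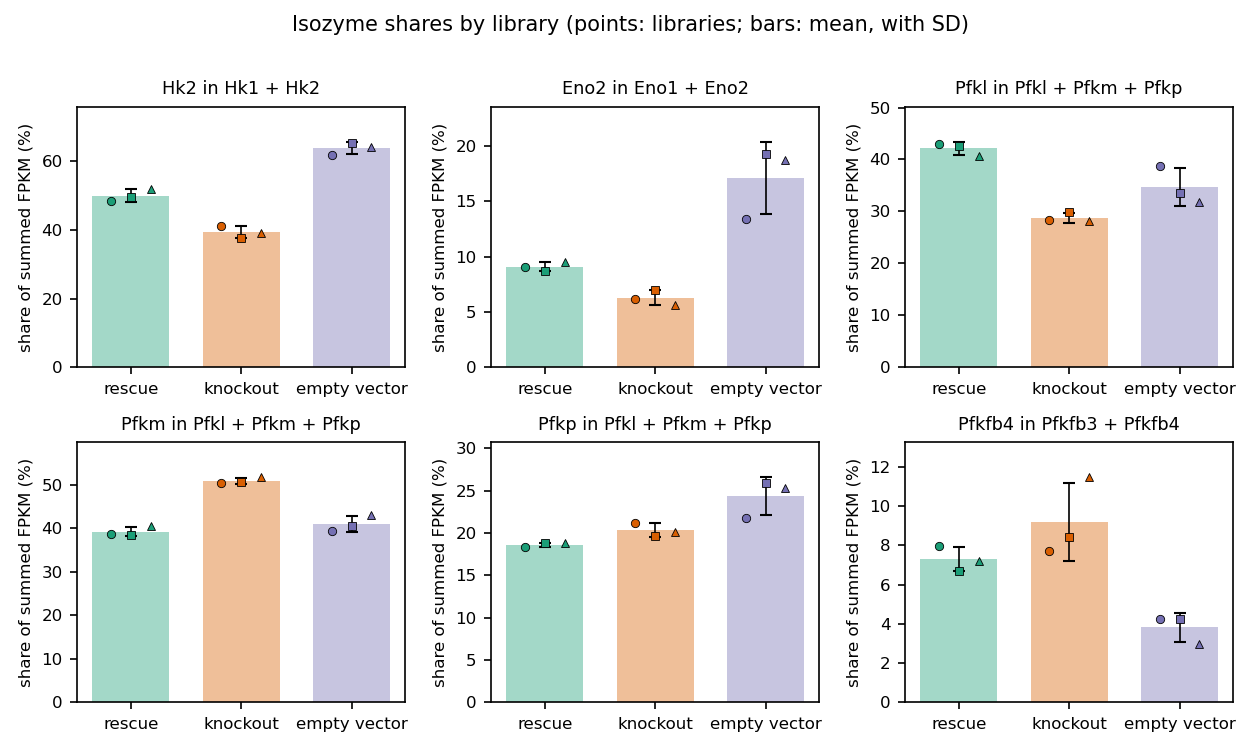
Share of an isozyme in the summed FPKM of the genes named above its panel, in percent on axes that start at 0, with a bar for the group mean, its SD and 1 point a library, for rescue, knockout and empty-vector cells. Other genes of these families, among them Eno1b, Eno3 and Hkdc1, are not in the sums. The share of Hk2 was 50% in rescue, 39.3% in knockout and 63.8% in empty-vector cells, and the share of Eno2 was 9.1% in rescue, 6.28% in knockout and 17.1% in empty-vector cells.

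Aldolase splits the 6-carbon sugar, and its muscle form Aldoa is the main one here. The row of the full-length gene (ENSMUSG00000030695, chromosome 7, 126795234 to 126800751, minus strand) had 1023, 1047 and 969.7 CPM in rescue, 701, 747 and 754 CPM in knockout and 826, 652 and 646 CPM in empty-vector libraries. The rise in rescue against knockout cells had a log2 change of 0.46 ± 0.08 (SE, adjusted p = 0.00011). The other row of that name (ENSMUSG00000114515, chromosome 7, 126800790 to 126809108, minus strand) begins upstream of it on the same strand and is annotated as a gene of its own with a transcript marked for nonsense-mediated decay. It held 162, 101 and 93 reads in rescue, 90, 47 and 108 reads in knockout and 245, 170 and 258 reads in empty-vector libraries, and fell in knockout against empty-vector cells with a log2 change of -1.17 ± 0.14 (SE, adjusted p = 4.7e-07). The brain form Aldoc had 46.1, 47.3 and 45.9 CPM in rescue, 39.3, 48.7 and 45.3 CPM in knockout and 40.4, 39.1 and 33.3 CPM in empty-vector libraries, with rescue and knockout overlapping. It made up 3.93% ± 0.102 of the summed FPKM of Aldoa and Aldoc in rescue, 5.12% ± 0.36 in knockout and 4.55% ± 0.467 in empty-vector cells (SD, n = 3 each).

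Triose phosphate isomerase, Tpi1, interconverts the pair of triose phosphates. Its mRNA stood at 914, 926 and 819.8 CPM in rescue, 473, 524 and 518 CPM in knockout and 565, 393 and 373 CPM in empty-vector libraries, with all rescue libraries on top. It rose in rescue against knockout cells with a log2 change of 0.81 ± 0.14 (SE, adjusted p = 0.00038) and in rescue against empty-vector cells with a log2 change of 1.00 ± 0.14 (SE, adjusted p = 0.00013). Gapdh, the dehydrogenase often used as a loading control, gave values that cannot be used here. It had 539, 915 and 278 reads in rescue, 361, 1120 and 2636 reads in knockout and 3098, 183 and 263 reads in empty-vector libraries, a spread of over 10 times within the empty-vector group. It stood at 6.96 ± 4.43 FPKM in rescue, where its neighbour in the pathway Tpi1 stood at 319.9 ± 21.1 FPKM (SD, n = 3). Gapdh has many near-identical processed copies in the mouse genome. How the authors counted reads that match several places is not stated in the sources used, and the part of this in its values was not tested.

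Phosphoglycerate kinase, Pgk1, makes the pathway's first ATP and is a classical hypoxia-inducible gene. It had 1182, 1166 and 1117 CPM in rescue, 551, 616 and 585 CPM in knockout and 942, 846 and 787 CPM in empty-vector libraries. The groups did not overlap. It fell in knockout against empty-vector cells with a log2 change of -0.56 ± 0.08 (SE, adjusted p = 3.1e-06) and rose in rescue against knockout cells with a log2 change of 0.98 ± 0.08 (SE, adjusted p = 1.7e-09). Rescue cells stood above empty-vector cells for Pgk1, with a log2 change of 0.43 ± 0.08 (SE, adjusted p = 0.00011). Phosphoglycerate mutase, Pgam1, had 613, 571 and 525 CPM in rescue, 437, 476 and 495 CPM in knockout and 379, 334 and 305 CPM in empty-vector libraries. Here the knockout lay between the others: Pgam1 rose in knockout against empty-vector cells with a log2 change of 0.47 ± 0.08 (SE, adjusted p = 5.7e-05) and in rescue against knockout cells with a log2 change of 0.28 ± 0.08 (SE, adjusted p = 0.0061).

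The next step is enolase. The common form Eno1 had 1060.0, 1062 and 1025 CPM in rescue, 746, 760.0 and 808 CPM in knockout and 826, 728 and 679 CPM in empty-vector libraries, with rescue on top. It rose in rescue against knockout cells with a log2 change of 0.44 ± 0.08 (SE, adjusted p = 4.7e-05). A row for Eno1b, counted below among the alternative enzymes, averaged 399 CPM in rescue, 298 CPM in knockout and 285 CPM in empty-vector cells. Eno1b rose in rescue against knockout cells with a log2 change of 0.42 ± 0.07 (SE, adjusted p = 4.2e-05). How reads that match both rows were counted is not stated in the sources used, and its part in these values was not tested. Eno2, the neuronal form, which is also hypoxia-inducible in renal cancer cells, had 92.2, 88.8 and 94.7 CPM in rescue, 43.1, 50.0 and 42.3 CPM in knockout and 112, 152 and 137 CPM in empty-vector libraries. The groups did not overlap and the empty vector was highest. It fell in knockout against empty-vector cells with a log2 change of -1.57 ± 0.10 (SE, adjusted p = 3.6e-09) and rose in rescue against knockout cells with a log2 change of 1.03 ± 0.10 (SE, adjusted p = 4.1e-07). Rescue cells were still below empty-vector cells for Eno2, with a log2 change of -0.54 ± 0.09 (SE, adjusted p = 0.00026). In the summed FPKM of Eno1 and Eno2, the share of Eno2 was 9.04, 8.72 and 9.55% in the rescue libraries, 6.2, 6.99 and 5.64% in the knockout libraries and 13.4, 19.3 and 18.7% in the empty-vector libraries.

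Pyruvate kinase, Pkm, makes pyruvate and the pathway's last ATP. It had 2702, 2742 and 2554 CPM in rescue, 2055, 2123 and 2205 CPM in knockout and 2049, 1561 and 1557 CPM in empty-vector libraries. Its mRNA rose in rescue against knockout cells with a log2 change of 0.33 ± 0.09 (SE, adjusted p = 0.0064). The table counts whole genes, so the M1 and M2 splice forms of Pkm are not separated. Lactate dehydrogenase A, Ldha, had 1677, 1674 and 1476 CPM in rescue, 982, 1065 and 1041 CPM in knockout and 1162, 971 and 859 CPM in empty-vector libraries, with rescue clear of both others. The rise in rescue against knockout cells had a log2 change of 0.64 ± 0.09 (SE, adjusted p = 9.3e-06). Ldhb had 0, 0 and 0 reads in rescue, 0, 0 and 0 in knockout and 1, 1 and 2 in empty-vector libraries, so nearly all lactate dehydrogenase mRNA counted here was that of the A subunit.

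Per length, the levels of Pkm, Pgk1 and Ldha compared as follows. In rescue cells Pkm averaged 529 ± 20.0 FPKM, Pgk1 511 ± 14.7 FPKM and Ldha 483 ± 34.6 FPKM, neighbours whose SDs overlap (SD, n = 3). In knockout cells Pkm led at 425 ± 13.8 FPKM, ahead of Ldha at 311 ± 12.3 FPKM and Pgk1 at 260.2 ± 14.3 FPKM. In empty-vector cells Pgk1 averaged 378 ± 37.8 FPKM and Pkm 341 ± 59.6 FPKM, within each other's SD, with Ldha at 298 ± 48.5 FPKM. By FPKM, Pgk1 thus stood beside Pkm in rescue and empty-vector cells and well under it in knockout cells. The order within a group depends on the gene lengths used, 5001 bases for Pkm, 2244 for Pgk1 and 3310 for Ldha.

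The lactate transporter Slc16a1, which encodes MCT1, ran against the enzymes. It had 467, 493 and 506 CPM in rescue, 1135, 1073 and 996 CPM in knockout and 1005, 797 and 872 CPM in empty-vector libraries, with every rescue library under every other. It fell in rescue against knockout cells with a log2 change of -1.13 ± 0.08 (SE, adjusted p = 8.7e-10) and in rescue against empty-vector cells with a log2 change of -0.87 ± 0.08 (SE, adjusted p = 9.6e-08). Its rise in knockout against empty-vector cells was small with a log2 change of 0.26 ± 0.08 (SE, adjusted p = 0.0098) and was lost in 3 of 17 alternatives. Slc16a3, the hypoxia-inducible exporter MCT4, had 3, 2 and 2 reads in rescue, 11, 4 and 10 in knockout and 3, 4 and 6 in empty-vector libraries, too few to test. As a share of summed FPKM, MCT1 mRNA made up nearly all of the pair.

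The regulators Pfkfb3 and Pfkfb4 encode bifunctional enzymes that set the level of fructose 2,6-bisphosphate, the activator of phosphofructokinase. Pfkfb3 had 102, 101 and 109 CPM in rescue, 96.7, 99.1 and 97.3 CPM in knockout and 131, 133 and 139 CPM in empty-vector libraries, with the empty vector highest. In knockout against empty-vector cells it fell with a log2 change of -0.46 ± 0.06 (SE, adjusted p = 9.6e-07). It did not pass the test in rescue against knockout cells with a log2 change of 0.09 ± 0.06 (SE, adjusted p = 0.18). Pfkfb4 was low at 5.7, 4.71 and 5.47 CPM in rescue, 5.21, 5.87 and 8.13 CPM in knockout and 3.77, 3.79 and 2.77 CPM in empty-vector libraries. It rose in knockout against empty-vector cells with a log2 change of 0.93 ± 0.19 (SE, adjusted p = 0.00026).

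Among the other targets, the carbonic anhydrases hydrate carbon dioxide at the cell surface and help to hold pH. Car9, a standard hypoxia marker in human kidney cancer, was barely present, with 30, 16 and 15 reads in rescue, 19, 10 and 15 in knockout and 21, 22 and 18 in empty-vector libraries. Its change passed the test in none of the 3 comparisons (edgeR adjusted p of 0.7 in rescue against knockout). Car12 carried nearly all of the summed FPKM of the pair and stood at 212, 214 and 219.6 CPM in rescue, 321, 307 and 286 CPM in knockout and 346, 339.5 and 328 CPM in empty-vector libraries. Rescue lay under both other groups, and Car12 fell in rescue against knockout cells with a log2 change of -0.50 ± 0.06 (SE, adjusted p = 1.0e-06). Its small fall in knockout against empty-vector cells, a log2 change of -0.15 ± 0.06 (SE, adjusted p = 0.043), was lost in 11 of 17 alternatives, among them the fit without empty-vector replicate 1 (adjusted p = 0.078).

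**Figure D4:**
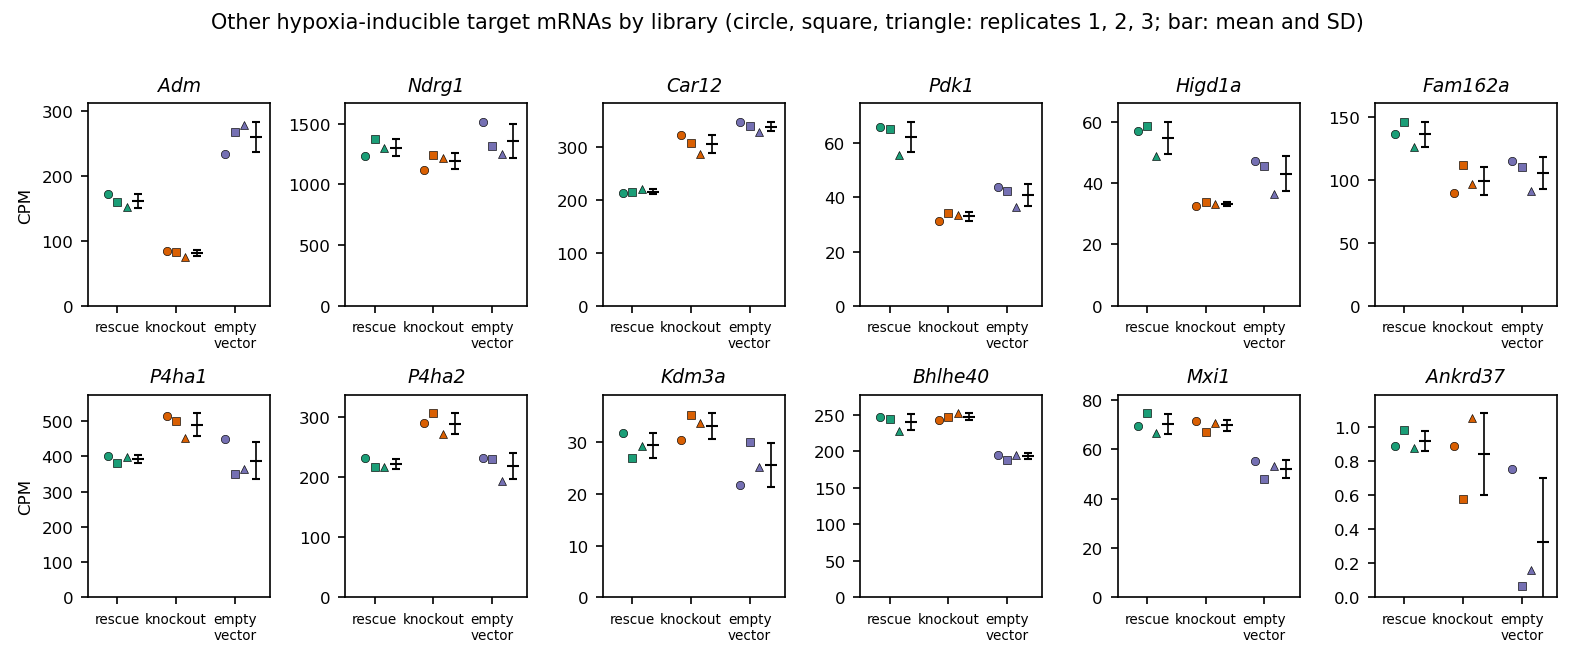
Levels of 12 other hypoxia-inducible targets in CPM on linear axes that start at 0, for rescue, knockout and empty-vector libraries, with 1 point a library and a bar for the mean and SD (the lower end of the empty-vector bar for Ankrd37 falls below 0 and is cut off). Adm and Pdk1 are lowest in knockout cells, P4ha1 and P4ha2 are highest there, and Bhlhe40 and Mxi1 are lowest in empty-vector cells.

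Adm encodes adrenomedullin, a secreted vasodilator peptide strongly induced by hypoxia. Its mRNA stood at 173, 161 and 151 CPM in rescue, 83.7, 82.5 and 75.3 CPM in knockout and 234, 268 and 279 CPM in empty-vector libraries. The groups did not overlap. It fell in knockout against empty-vector cells with a log2 change of -1.69 ± 0.08 (SE, adjusted p = 7.6e-13) and rose in rescue against knockout cells with a log2 change of 1.01 ± 0.07 (SE, adjusted p = 9.8e-10). Rescue cells were still below empty-vector cells for Adm, with a log2 change of -0.69 ± 0.07 (SE, adjusted p = 3.5e-07). Ndrg1, a stress-response gene with one of the strongest hypoxic inductions in many lines, had 1232, 1374 and 1299.8 CPM in rescue, 1122, 1244 and 1221 CPM in knockout and 1516, 1316 and 1249 CPM in empty-vector libraries. The groups lay close together and no comparison passed the test, with a log2 change of -0.19 ± 0.08 (SE, adjusted p = 0.055) in knockout against empty vector and 0.12 ± 0.08 (SE, adjusted p = 0.21) in rescue against knockout. A fall in knockout against empty vector was called in 4 of 17 alternatives, among them library totals alone (-0.34, adjusted p = 0.00024). In rescue against knockout Ndrg1 was called without empty-vector replicate 1 (0.14, adjusted p = 0.039) and with library totals alone (0.31, adjusted p = 0.00067). Ankrd37, a small ankyrin-repeat protein, had 25, 18 and 14 reads in rescue, 14, 7 and 25 in knockout and 17, 1 and 4 in empty-vector libraries. Its call in knockout against empty-vector cells, a log2 change of 1.32 ± 0.52 (SE, adjusted p = 0.034), rests on the few reads of empty-vector replicates 2 and 3 and was lost in 5 of 17 alternatives. Without empty-vector replicate 1 it was 2.78 (adjusted p = 0.00013). The call of Ankrd37 in rescue against empty-vector cells, a log2 change of 1.39 ± 0.50 (SE, adjusted p = 0.029), was lost in 6 of 17 alternatives. In the authors' deposited table the adjusted p of Ankrd37 was 0.145 in knockout against empty-vector cells and 0.082 in rescue against empty-vector cells.

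The 3 members whose proteins act in mitochondria rose together in rescue against knockout cells. Pdk1, the kinase that turns off pyruvate dehydrogenase and so keeps pyruvate out of the citric acid cycle, had 66, 65.1 and 55.8 CPM in rescue, 31.2, 34.1 and 33.6 CPM in knockout and 43.8, 42.6 and 36.4 CPM in empty-vector libraries. In knockout against empty-vector cells it fell with a log2 change of -0.31 ± 0.08 (SE, adjusted p = 0.0036) and rose in rescue against knockout cells with a log2 change of 0.92 ± 0.08 (SE, adjusted p = 1.4e-08). Higd1a, a small inner-membrane protein that binds respiratory-chain complexes, had 57, 58.7 and 48.9 CPM in rescue, 32.6, 34 and 33.2 CPM in knockout and 47.3, 45.6 and 36.6 CPM in empty-vector libraries. It fell in knockout against empty-vector cells with a log2 change of -0.37 ± 0.09 (SE, adjusted p = 0.0019) and rose in rescue against knockout cells with a log2 change of 0.73 ± 0.09 (SE, adjusted p = 2.1e-06). Fam162a, a hypoxia-induced mitochondrial protein linked to cell death, had 136, 146 and 126 CPM in rescue, 89.4, 111 and 96.9 CPM in knockout and 115, 110.3 and 91.1 CPM in empty-vector libraries, with knockout and empty vector overlapping. It rose in rescue against knockout cells with a log2 change of 0.46 ± 0.09 (SE, adjusted p = 0.00072). The share of reads from the mitochondrial genome also differed between these groups and was highest in knockout. With the mitochondrial genome left out of the totals, 12 glycolysis rows rose and 2 fell and 4 other targets rose and 3 fell in rescue against knockout, as with it. TMM already corrects for composition, and the median log2 change of all tested genes was 0.0331 without these genes and 0.0330 with them. That fit could therefore hardly differ, and the part of the mitochondrial share in these results was not tested by it.

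The collagen prolyl hydroxylase subunits P4ha1 and P4ha2, which modify collagen in the endoplasmic reticulum, ran the other way. P4ha1 had 401, 380.2 and 398 CPM in rescue, 515, 501 and 452 CPM in knockout and 449, 350.4 and 365 CPM in empty-vector libraries. It rose in knockout against empty-vector cells with a log2 change of 0.33 ± 0.08 (SE, adjusted p = 0.0017) and fell in rescue against knockout cells with a log2 change of -0.32 ± 0.08 (SE, adjusted p = 0.0029), a fall lost with library totals alone. P4ha2 had 231, 217 and 217 CPM in rescue, 289, 306 and 272 CPM in knockout and 232, 230.5 and 194 CPM in empty-vector libraries, with knockout highest. It rose in knockout against empty-vector cells with a log2 change of 0.40 ± 0.07 (SE, adjusted p = 8.7e-05) and fell in rescue against knockout cells with a log2 change of -0.38 ± 0.07 (SE, adjusted p = 0.00017). In rescue against empty-vector cells neither passed the test, with log2 changes of 0.02 ± 0.08 for P4ha1 and 0.02 ± 0.07 for P4ha2 (SE). Without empty-vector replicate 1 P4ha1 was called there (0.16, adjusted p = 0.028).

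The nuclear members rose in knockout against empty-vector cells and did not pass the test in rescue against knockout cells. Kdm3a, a histone H3 lysine demethylase, had 31.9, 27.1 and 29.4 CPM in rescue, 30.4, 35.3 and 33.7 CPM in knockout and 21.7, 30.1 and 25.2 CPM in empty-vector libraries. Its mRNA rose in knockout against empty-vector cells with a log2 change of 0.38 ± 0.10 (SE, adjusted p = 0.0043), a call lost with library totals alone. Bhlhe40, a repressor with a role in the clock and in differentiation, had 247, 244 and 227 CPM in rescue, 243, 247 and 252 CPM in knockout and 195, 188 and 195 CPM in empty-vector libraries. Knockout and rescue overlapped, and both rose against the empty vector, with a log2 change of 0.36 ± 0.06 (SE, adjusted p = 3.1e-05) in knockout and 0.31 ± 0.06 (SE, adjusted p = 0.00023) in rescue. Mxi1, which opposes Myc, had 69.4, 74.6 and 66.8 CPM in rescue, 71.5, 67.2 and 70.6 CPM in knockout and 55.3, 47.9 and 53.1 CPM in empty-vector libraries. Its mRNA rose in knockout against empty-vector cells with a log2 change of 0.42 ± 0.07 (SE, adjusted p = 2.7e-05). In rescue against knockout cells the log2 changes were -0.16 ± 0.10 (SE, adjusted p = 0.18) for Kdm3a, -0.05 ± 0.06 (SE, adjusted p = 0.52) for Bhlhe40 and 0.01 ± 0.07 (SE, adjusted p = 0.91) for Mxi1. With library totals alone Bhlhe40 turned to 0.14 (adjusted p = 0.043) in that comparison, and Mxi1 was called at 0.19 (adjusted p = 0.015). Kdm3a was called there in the fit of rescue and knockout libraries alone (-0.19, adjusted p = 0.037).

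The 250 bases before the annotated start were searched on both strands for the core words ACGTG and GCGTG in the 33 members that have a promoter window in the RefSeq table (build GRCm38.p6). At least 1 window held either word in 29 of 33 members (87.9%), in 19 of 22 glycolysis genes and in 10 of 11 other targets, against 41.5% of 27025 genes of all kinds in that table. Among members that rose in rescue against knockout cells it was 13 of 16, among those that fell 4 of 5, and among those that were not called 10 of 10, with Slc16a3 and Ldhb not tested. A match is a run of letters and not a binding site. The members were chosen as glycolysis genes and known targets of these factors, so their difference from all genes is no support of its own. A gene with several windows also has more chances to hold a word. By window, either word stood in 38 of 50 windows of members (76%) and in 38.6% of all 32851 windows. The windows of the 6 members called in rescue against knockout cells with a log2 change of at least 0.9 in size are printed here, since these carry the contrast of rising enzymes and targets with the falling lactate transporter, with every match to either word on either strand in capitals. Pgk1 (chrX:106186850-106187099, plus strand) holds ACGTG 150 bases before the start and its reverse complement 131 bases before it. Adm (chr7:110627407-110627656, plus strand) holds the reverse complement of GCGTG at 90 and 54 bases, Pdk1 (chr2:71872974-71873223, plus strand) holds GCGTG at 78 bases and Pfkl (chr10:78009808-78010057, minus strand) at 99 bases. Eno2 (chr6:124769674-124769923, minus strand) holds neither word in this window. Slc16a1 (chr3:104638414-104638663, plus strand), the member that fell most, holds 4 matches, of which a pair overlaps in the palindrome CACGTG.
Pfkl: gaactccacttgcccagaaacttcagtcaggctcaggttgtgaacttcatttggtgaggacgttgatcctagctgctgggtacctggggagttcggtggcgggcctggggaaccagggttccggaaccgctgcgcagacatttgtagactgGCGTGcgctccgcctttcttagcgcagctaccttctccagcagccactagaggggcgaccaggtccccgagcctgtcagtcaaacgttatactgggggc
Pgk1: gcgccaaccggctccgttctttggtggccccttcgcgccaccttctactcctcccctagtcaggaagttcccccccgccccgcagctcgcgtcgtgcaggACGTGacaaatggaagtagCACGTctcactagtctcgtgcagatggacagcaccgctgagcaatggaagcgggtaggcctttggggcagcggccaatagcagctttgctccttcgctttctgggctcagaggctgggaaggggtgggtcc
Eno2: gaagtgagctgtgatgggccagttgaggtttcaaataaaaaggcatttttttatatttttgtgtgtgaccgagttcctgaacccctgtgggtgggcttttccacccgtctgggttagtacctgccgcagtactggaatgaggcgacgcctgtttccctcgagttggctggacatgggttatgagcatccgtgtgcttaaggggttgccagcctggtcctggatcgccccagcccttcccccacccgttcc
Adm: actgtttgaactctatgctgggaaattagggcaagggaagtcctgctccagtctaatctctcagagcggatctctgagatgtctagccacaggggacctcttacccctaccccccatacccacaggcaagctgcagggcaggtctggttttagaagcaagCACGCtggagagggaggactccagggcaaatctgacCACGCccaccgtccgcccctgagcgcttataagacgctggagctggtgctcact
Pdk1: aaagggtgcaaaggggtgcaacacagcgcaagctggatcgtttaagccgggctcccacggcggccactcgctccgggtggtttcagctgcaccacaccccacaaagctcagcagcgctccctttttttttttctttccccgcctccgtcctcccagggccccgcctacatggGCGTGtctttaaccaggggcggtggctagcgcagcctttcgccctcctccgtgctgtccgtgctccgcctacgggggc
Slc16a1: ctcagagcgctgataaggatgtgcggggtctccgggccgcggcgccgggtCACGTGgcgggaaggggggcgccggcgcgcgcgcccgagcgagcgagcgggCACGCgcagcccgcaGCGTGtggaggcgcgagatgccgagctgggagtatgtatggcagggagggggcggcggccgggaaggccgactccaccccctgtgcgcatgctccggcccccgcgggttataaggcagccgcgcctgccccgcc

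Other genes of the pathway, grouped in lists, changed in both directions, and those named here are the genes of each list with the largest changes. Among all tested genes 29.5% rose and 27.3% fell in rescue against knockout cells, 22.4% rose and 25.1% fell in rescue against empty-vector cells, and 29.5% rose and 31.1% fell in knockout against empty-vector cells. Of 16 tested genes for alternative glycolytic and gluconeogenic enzymes out of 25 listed, 4 rose and 8 fell in rescue against knockout cells, with a median log2 change of -0.34 against 0.03 over all genes. In rescue against empty-vector cells 4 of them rose and 4 fell, and in knockout against empty-vector cells 6 rose and 3 fell. Eno3, the muscle enolase, averaged 21 ± 2.44 CPM in rescue, 68.7 ± 3.95 CPM in knockout and 24.5 ± 0.806 CPM in empty-vector cells (SD, n = 3 each). It rose in knockout against empty-vector cells with a log2 change of 1.48 ± 0.08 (SE, adjusted p = 1.1e-11) and fell in rescue against knockout cells with a log2 change of -1.70 ± 0.08 (SE, adjusted p = 1.9e-12). Pklr, the liver and red-cell pyruvate kinase, averaged 13.1 ± 0.69 CPM in rescue, 25.5 ± 2.14 CPM in knockout and 10.5 ± 1.08 CPM in empty-vector cells, and Pcx, which turns pyruvate into oxaloacetate, averaged 42.5 ± 1.45 CPM in rescue, 86.3 ± 5.32 CPM in knockout and 36.9 ± 4.75 CPM in empty-vector cells. Both rose in knockout against empty-vector cells, Pklr with a log2 change of 1.28 ± 0.10 (SE, adjusted p = 2.1e-09) and Pcx with one of 1.22 ± 0.08 (SE, adjusted p = 2.1e-10). Hkdc1, a hexokinase-like enzyme, fell in rescue against knockout cells with a log2 change of -1.98 ± 0.18 (SE, adjusted p = 1.3e-08), while Tigar, a phosphatase that lowers fructose 2,6-bisphosphate, rose with a log2 change of 1.13 ± 0.07 (SE, adjusted p = 8.0e-11). Adpgk, an ADP-dependent glucokinase, fell in rescue against empty-vector cells with a log2 change of -0.73 ± 0.06 (SE, adjusted p = 1.3e-08).

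Of 12 tested genes of 13 that govern the entry of pyruvate into mitochondria, 5 rose and 2 fell in rescue against knockout cells, 2 rose and 2 fell in rescue against empty-vector cells, and 5 rose and 6 fell in knockout against empty-vector cells. In knockout against empty vector these are 41.7% up and 50% down, above the 29.5% and 31.1% of all genes, though for 12 genes. Pdk4, another pyruvate dehydrogenase kinase, averaged 14.3 ± 0.712 CPM in rescue, 6.5 ± 0.452 CPM in knockout and 16.9 ± 0.918 CPM in empty-vector cells (SD, n = 3 each), with a fall in knockout against empty-vector cells and a log2 change of -1.39 ± 0.11 (SE, adjusted p = 1.4e-09). Pdp2, a phosphatase that turns the complex back on, averaged 52.4 ± 4.33 CPM in rescue, 115 ± 0.371 CPM in knockout and 51.2 ± 3.00 CPM in empty-vector cells and rose in knockout against empty-vector cells with a log2 change of 1.16 ± 0.07 (SE, adjusted p = 3.5e-11). Subunits of the complex moved less: Dlat fell with a log2 change of -0.56 ± 0.07 (SE, adjusted p = 1.2e-06) in knockout against empty vector and Pdha1 rose with a log2 change of 0.53 ± 0.06 (SE, adjusted p = 2.7e-07) in rescue against knockout. Pdk2 rose in rescue against empty-vector cells with a log2 change of 0.67 ± 0.11 (SE, adjusted p = 5.2e-05), Pdhx rose with a log2 change of 0.32 ± 0.07 (SE, adjusted p = 0.00073) and Dld fell with a log2 change of -0.30 ± 0.07 (SE, adjusted p = 0.003).

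Of 17 tested genes of 18 in the side branches of glycolysis, 5 rose and 6 fell in rescue against knockout cells, 8 rose and 3 fell in rescue against empty-vector cells, and 8 rose and 7 fell in knockout against empty-vector cells. The shares in rescue against knockout, 29.4% up and 35.3% down, lie near those of all genes (29.5% and 27.3%). For rescue against empty vector they were 47.1% up and 17.6% down, against 22.4% and 25.1% of all genes. For knockout against empty vector they were 47.1% up and 41.2% down, against 29.5% and 31.1% of all genes. Tkt, the transketolase of the pentose phosphate pathway, averaged 1379.8 ± 19.7 CPM in rescue, 2404 ± 253 CPM in knockout and 853 ± 180.3 CPM in empty-vector cells (SD, n = 3 each). Tkt rose in knockout against empty-vector cells with a log2 change of 1.50 ± 0.12 (SE, adjusted p = 9.0e-08), as did Pgd, a dehydrogenase of the same pathway, with a log2 change of 1.24 ± 0.08 (SE, adjusted p = 1.4e-10). Rpia, the ribose 5-phosphate isomerase, fell in that comparison with a log2 change of -1.04 ± 0.07 (SE, adjusted p = 5.7e-10) and rose in rescue against knockout cells with a log2 change of 1.20 ± 0.07 (SE, adjusted p = 7.5e-11). Ugp2, which makes UDP-glucose for glycogen, rose in rescue against knockout cells with a log2 change of 1.20 ± 0.07 (SE, adjusted p = 2.2e-11). In rescue against empty-vector cells G6pdx, the entry enzyme of the pentose phosphate pathway, rose with a log2 change of 1.02 ± 0.11 (SE, adjusted p = 7.4e-06), Gpd1l, a glycerol 3-phosphate dehydrogenase, with a log2 change of 0.83 ± 0.06 (SE, adjusted p = 1.9e-09) and Pgm2, a phosphoglucomutase, with a log2 change of 0.79 ± 0.10 (SE, adjusted p = 3.6e-05).

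Of 20 tested genes on a further list of 26 hypoxia-inducible targets, 8 rose and 4 fell in rescue against knockout cells, 10 rose and 5 fell in rescue against empty-vector cells, and 6 rose and 5 fell in knockout against empty-vector cells. The shares in knockout against empty vector, 30% up and 25% down, lie near those of all genes (29.5% and 31.1%). Those in rescue against knockout were 40% and 20%, against 29.5% and 27.3% of all genes. For rescue against empty vector they were 50% and 25%, against 22.4% and 25.1% of all genes. The median log2 change was 0.12 in rescue against knockout, 0.43 in rescue against empty vector and -0.03 in knockout against empty vector. Bnip3, a mitophagy receptor and classical target, averaged 113 ± 12.6 CPM in rescue, 46.4 ± 13.9 CPM in knockout and 65.7 ± 20.0 CPM in empty-vector cells (SD, n = 3 each) and rose in rescue against knockout cells with a log2 change of 1.29 ± 0.30 (SE, adjusted p = 0.0097). Lox, the collagen cross-linking lysyl oxidase, averaged 48.5 ± 2.37 CPM in rescue, 218 ± 7.23 CPM in knockout and 27.9 ± 7.32 CPM in empty-vector cells. Lox rose in knockout against empty-vector cells with a log2 change of 2.96 ± 0.15 (SE, adjusted p = 6.6e-08) and fell in rescue against knockout cells with a log2 change of -2.16 ± 0.14 (SE, adjusted p = 5.7e-07), the same directions as the collagen hydroxylases P4ha1 and P4ha2. Angptl4, a secreted inhibitor of lipoprotein lipase, averaged 94.8 ± 5.27 CPM in rescue, 161 ± 6.33 CPM in knockout and 480.1 ± 49.3 CPM in empty-vector cells, and fell in knockout against empty-vector cells with a log2 change of -1.58 ± 0.07 (SE, adjusted p = 1.8e-12). Vldlr, a lipoprotein receptor, rose in knockout against empty-vector cells with a log2 change of 1.27 ± 0.08 (SE, adjusted p = 4.2e-11). Zfp395, a transcription factor, rose in rescue against knockout cells with a log2 change of 1.06 ± 0.15 (SE, adjusted p = 6.8e-06), and Ddit4, an inhibitor of mTORC1 signalling, rose in rescue against empty-vector cells with a log2 change of 0.87 ± 0.08 (SE, adjusted p = 6.4e-08).

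The hypoxia-inducible factor pathway itself was measured through 5 tested genes of 8, since Epas1, Hif3a and Arnt2 were too low to test. In rescue against knockout cells 2 rose and 0 fell, in rescue against empty-vector cells 3 rose and 1 fell, and in knockout against empty-vector cells 2 rose and 2 fell. Hif1a, the alpha subunit, averaged 498 ± 21.8 CPM in rescue, 366 ± 8.4 CPM in knockout and 332 ± 52.6 CPM in empty-vector cells (SD, n = 3 each) and rose in rescue against knockout cells with a log2 change of 0.44 ± 0.09 (SE, adjusted p = 0.00024). Arnt, its partner, fell in knockout against empty-vector cells with a log2 change of -0.47 ± 0.07 (SE, adjusted p = 1.3e-05). Vhl rose in rescue against knockout cells with a log2 change of 0.30 ± 0.08 (SE, adjusted p = 0.0024). Egln2, an oxygen-sensing prolyl hydroxylase, rose in knockout against empty-vector cells with a log2 change of 0.49 ± 0.09 (SE, adjusted p = 7.1e-05), and Hif1an, the asparaginyl hydroxylase, with one of 0.42 ± 0.07 (SE, adjusted p = 2.3e-05). Hypoxia-inducible factors are controlled mainly through protein stability, which mRNA counts do not measure.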

How the data were processed

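Poly(A) RNA libraries of RENCA cells were sequenced, per the labels' protocols, and mapped to mouse build mm10, per the submitters' processing notes, which name CASAVA, HISAT2, HISAT and TopHat2 without roles. Raw read counts per gene, FPKM values (scaled to gene length and library size) and gene annotation were used as deposited, per the file headers. The authors' deposited table also gives log2 fold changes and p-values, whose test is not named there. Of these, only log2 fold changes and adjusted p-values of members were set beside the values computed here. In it, 33 of 34 tested members had the same call in rescue against knockout, 33 in rescue against empty vector and 30 in knockout against empty vector, and none had the opposite call. The strand setting of the counting is not stated in the sources used.

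Counts were filtered with filterByExpr, TMM-scaled and tested with edgeR 4.0.16 (quasi-likelihood, all 9 libraries in 1 fit, no covariates) in R 4.3.3, and p-values were adjusted over all 13326 rows. The method was tested on simulated data. Alternatives were other scalings, no filter, DESeq2 1.42.0, fits of 6 libraries, mitochondrial genes left out, a replicate block and each library left out. Named genes are all members, Ndufa4l2, and up to 3 called genes per list and comparison with the largest log2 change among those with at least 5 CPM. Eno1b was named beside Eno1 outside this rule. The members and lists were chosen with earlier results of these data known. No libraries agreed within sampling noise. Promoter sequences and motifs come from RefSeq windows of GRCm38.p6. Ndrg1 and Bhlhe40 were not searched here.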

Additional observations from a re-analysis of the deposited data

How the results depend on the processing

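Of 70 calls on members over the 3 comparisons, 59 kept their direction and their side of the threshold in every alternative run. The counts of members that rose and fell stayed within 1.5 times the values given above, with the exceptions that follow, while the counts of the other pathway lists were not run under alternatives. In knockout against empty-vector cells, the number of glycolysis rows that rose was 4 with library totals alone and ranged between 5 and 15 when each library was left out in turn, with 15 without empty-vector replicate 1 and 5 without empty-vector replicate 3. In rescue against knockout cells, 1 glycolysis row fell and 7 other targets rose with library totals alone, a scaling that does not correct for composition and under which the median log2 change of all genes was 0.22. The log2 change of Pfkl in knockout against empty-vector cells ranged between -0.21 (without empty-vector replicate 3) and 0.20 (without empty-vector replicate 1), so its sign turned, and that of Bhlhe40 turned to 0.14 in rescue against knockout cells with library totals alone. The median log2 change of the glycolysis rows ranged from -0.012 to 0.31 in knockout against empty vector, from 0.29 to 0.51 in rescue against knockout and from 0.43 to 0.67 in rescue against empty vector. The cause was not tested. With the replicate number as a block, 7367 genes were called in rescue against knockout, 6091 in rescue against empty vector and 7890 in knockout against empty vector; Slc2a1 was then called in rescue against knockout (adjusted p = 0.04) and Car12 no longer in knockout against empty vector (adjusted p = 0.054). The numbers do not pair the libraries: deviations of same-numbered libraries correlated between -0.16 and 0.05, and in 2 of 9 such pairs the correlation was higher than with the other numbers. Depth limits Slc16a3, Ldhb, Car9 and Ankrd37, and counts of Gapdh varied too much within groups to bear a comparison.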
